A study of Mus musculus with 6 samples.

Results

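The genes described here are 9 non-coding hosts of small nucleolar RNAs (snoRNAs), Gas5, Snhg1, Snhg3, Snhg5, Snhg6, Snhg8, Snhg12, Snhg15 and Zfas1, out of 56941 genes in the count table. They were picked by gene name and annotation, with earlier results of these data known, and 8 of the 9 had enough counts for a test. The libraries came from CD8+ T cells of B6 mouse spleen, purified as naive cells according to the labels. Naive cells were stimulated for 3 days on plate-bound anti-CD3 and anti-CD28 with rIL2, and 24 h into that culture either vehicle (3 libraries) or sphingosine-1-phosphate (S1P) at 5 µM (3 libraries) was added. Both groups therefore share the mouse strain, the activating antibodies and the cytokine, and by their labels differ in the lipid. The study's methods name purified naive T cells or total splenocytes as starting material, and labels call the libraries biological replicates without saying whether each came from its own mouse, so the p-values measure the spread between these libraries, which may be partly technical.

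Most snoRNAs of mammals are cut out of the introns of longer transcripts. Box C/D snoRNAs guide the 2′-O-methylation of ribosomal RNA, and box H/ACA snoRNAs guide its pseudouridylation. In the non-coding hosts the excised intron is the conserved product. The remaining spliced RNA holds short reading frames, is engaged by ribosomes and is degraded by nonsense-mediated decay (NMD), so that its level is known to rise when translation stops. Many of these hosts start with a run of pyrimidines of the kind that places ribosomal protein mRNAs (5′ terminal oligopyrimidine, or 5′TOP, mRNAs) under growth control. Gas5 was named for its accumulation in growth-arrested cells.

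The hosts differ in what their introns carry. Gas5 (chromosome 1, 160861793 to 160866118, plus strand, GRCm39) held 10 annotated snoRNAs, among them Snord47, Snord78 and Snord80. Snhg1 (chromosome 19, 8700319 to 8703812, plus strand) held 8, one of them Snord22. Box C/D snoRNAs also lie in Zfas1 (chromosome 2, 166903619 to 166907799, plus strand; 3 snoRNAs, Snord12 among them), Snhg5 (chromosome 9, 88377321 to 88405615, minus strand; Snord50a and Snord50b) and Snhg6 (chromosome 1, 9926809 to 10014504, minus strand; Snord87). The H/ACA hosts are Snhg3 (chromosome 4, 132075325 to 132080997, minus strand; Snora73a and Snora73b), Snhg8 (chromosome 3, 123301192 to 123302578, minus strand; Snora24) and Snhg15 (chromosome 11, 6473829 to 6478870, minus strand; Snora9). Snhg12 (chromosome 4, 132035905 to 132038762, plus strand) carried both kinds, with Snord99, Snora44, Snora61 and 2 genes named Snora16a. In every one of the 9 hosts, at least 1 annotated transcript spliced across each snoRNA.

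The 60 bases around the commonest start among the annotated transcripts of each gene are shown for the 8 tested hosts (GENCODE vM39 on GRCm39). They hold 30 bases before the start and 30 from it on. The start is where a 5′TOP run would stand. Capitals mark the longest unbroken run of C and T that reaches into the stretch from 10 bases before to 20 bases after the start.

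Gas5, chr1:160862706-160862765, plus: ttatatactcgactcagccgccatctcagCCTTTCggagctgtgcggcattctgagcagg

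Snhg1, chr19:8700821-8700880, plus: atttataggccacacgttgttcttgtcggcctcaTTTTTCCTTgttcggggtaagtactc

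Zfas1, chr2:166905112-166905171, plus: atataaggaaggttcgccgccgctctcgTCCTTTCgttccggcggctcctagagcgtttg

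Snhg5, chr9:88404915-88404974, minus: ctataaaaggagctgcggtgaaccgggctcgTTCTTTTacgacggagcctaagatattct

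Snhg6, chr1:10014314-10014373, minus: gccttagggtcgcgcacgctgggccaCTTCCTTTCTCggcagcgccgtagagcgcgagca

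Snhg8, chr3:123301963-123302022, minus: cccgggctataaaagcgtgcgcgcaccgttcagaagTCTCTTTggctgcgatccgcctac

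Snhg12, chr4:132035957-132036016, plus: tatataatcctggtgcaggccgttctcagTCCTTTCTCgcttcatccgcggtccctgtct

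Snhg15, chr11:6478737-6478796, minus: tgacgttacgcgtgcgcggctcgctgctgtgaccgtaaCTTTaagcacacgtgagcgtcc

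The run was 11 bases long in Snhg6, 9 in Snhg1 and Snhg12, 7 in Zfas1, Snhg5 and Snhg8, 6 in Gas5 and 4 in Snhg15. It spanned the start itself in Gas5, Zfas1, Snhg6 and Snhg12. In Snhg15 it began at base 9 of the transcript. A short run was not particular to Snhg15. The median run was 5 bases over all tested genes and 6 (2 to 12) over the other tested non-coding hosts. Among those hosts, Gm15832 had 4 bases from base 11 and AA465934 had 3 from base 9. A run of at least 8 bases was present in 3 of the 8 hosts (37.5%), against 3 of the 18 other tested non-coding hosts (16.7%), 2154 of 13232 tested genes that have an annotated start outside the mitochondrial genome (16.3%) and 23 of 81 ribosomal protein genes (28.4%). These runs depend on where the annotation puts the start, which only 3 of 32 Snhg15 transcripts and 80 of 229 Gas5 transcripts share, and they are given as a description of the annotated sequence.

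The tested hosts also share short reading frames. Among annotated transcripts that were spliced free of snoRNAs, the frame that opened at the first ATG had a median length of 1 codon in Snhg8, 10 in Snhg5, 23 in Gas5, 31 in Zfas1, 32 in Snhg1, 35 in Snhg15, 53 in Snhg6 and 54 in Snhg12. An exon junction lay more than 50 bases past the stop of that frame, the arrangement known to mark an RNA for NMD, in 83.3% (Snhg8) to 95.2% (Snhg12) of such transcripts of the 8 tested hosts, but in only 1 of 4 (25%) of Snhg3. The shares of Snhg12 and Snhg15 (95%) were close to those of Gas5 (94%), Zfas1 (94.4%) and Snhg5 (94.7%). The longest frame anywhere in these transcripts had a median of 35 (Snhg8) to 79 codons (Zfas1), and reached 136 codons in Gas5. Frames of other genes were not compared.

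Total counts per library ran from 13636095 to 17089831 with vehicle and from 12048880 to 17384084 with S1P. Mitochondrially encoded genes took 4.1 to 4.64% of the counts with vehicle, and 4.49, 7.8 and 4.93% in S1P replicates 1, 2 and 3, so that S1P replicate 2 stood apart. The S1P libraries also differed more among themselves. The chi-square per gene between 2 libraries was 3.5 to 3.63 for vehicle pairs and 5.39 to 27.1 for S1P pairs, highest for S1P replicates 1 and 2. Over all genes, 13299 were tested with edgeR's quasi-likelihood test, and a call needed a Benjamini-Hochberg adjusted p no higher than 0.05 as well as a log2 fold change of 0.3 or more either way. By that rule 23.1% of tested genes were called, 12.7% higher and 10.4% lower with S1P. The CD8 T cell markers were present, and 3 of 8 were lower with S1P: Cd8a lay at 207 to 251 CPM (TMM-scaled counts relative to library size) with vehicle and at 132 to 144 CPM with S1P. Markers of other cells were present too. The 8 B cell genes summed to 1680 to 2050 CPM with vehicle and 1700 to 1800 CPM with S1P (2 lower, Ms4a1 and H2-Aa), and Cd4 lay at 186 to 223 CPM and 195 to 254 CPM. Of the 3 CD4 T cell markers 1 was higher with S1P, the transcription factor gene Zbtb7b (log2 fold change 0.37, adjusted p = 0.00886, edgeR). Summed myeloid (7 genes), NK cell (4 genes) and erythroid markers (4 genes) stayed at or under 6.23 CPM in every library, although no listed marker was at 0 in all 6. The part of these other cells in the values below was not tested, and in bulk RNA fewer cells of a type cannot be told apart from less RNA per cell.

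With S1P, 1 of the 8 tested hosts rose (Snhg12), 1 fell (Snhg15) and 6 did not pass the thresholds, a share of 25% against the 23.1% of all tested genes. The median log2 fold change of the 8 hosts was 0.02, against 0.01 over all tested genes. The hosts therefore showed no common shift, and their share of calls was near the background. The 2 calls went in opposite directions.

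Snhg15, an RNA known to be short-lived, was the host with the largest difference. Its normalized count (TMM-scaled, at the mean library size) was 553, 479 and 575 in vehicle replicates 1, 2 and 3, and 366, 335 and 382 in S1P replicates 1, 2 and 3. All 3 S1P libraries lay below all 3 vehicle libraries. Group means (n = 3 each) were 536 ± 50.4 (SD) with vehicle and 361 ± 23.8 (SD) with S1P, and the log2 fold change was -0.57 ± 0.10 (SE; 95% interval -0.78 to -0.36; adjusted p = 0.00127, edgeR). That is 0.674 of the vehicle level. Snhg15 kept its call in each of 18 alternative fits, with log2 fold changes from -0.65 to -0.52 and adjusted p from 2.25e-06 to 0.0113. Of its annotated exon sequence, 0.6% lay opposite another gene, and 17.8% of its 31-base words recurred elsewhere in the genome.

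Snhg12, which carries box C/D and H/ACA snoRNAs, was the host that rose. Normalized counts were 338, 314 and 346 with vehicle and 409.7, 417 and 439 with S1P. The lowest S1P library was above the highest vehicle library. With means of 333 ± 16.9 and 422 ± 15.1 (SD, n = 3), its log2 fold change was 0.34 ± 0.09 (SE; 95% interval 0.15 to 0.53; adjusted p = 0.0119, edgeR). This call sat close to the fold threshold and failed in 3 of 18 alternative fits. It was lost in the edgeR fit without a filter on low counts (log2 fold change 0.311, adjusted p = 0.0565) and without S1P replicate 3 (0.304, adjusted p = 0.0522). It was also lost without vehicle replicate 2 (0.297, adjusted p = 0.0579, edgeR), where both thresholds were missed. Over all 18 alternatives the log2 fold change stayed between 0.297 and 0.367. No annotated gene lies opposite its exons.

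The ratio of Snhg12 to Snhg15 counts needs no scaling between libraries. It was 0.611, 0.655 and 0.601 in the vehicle libraries and 1.12, 1.24 and 1.15 in the S1P libraries. The pair was chosen because both were called, so the ratio is a description with no test. Every S1P library had a higher ratio than every vehicle library, which follows from the groups being separate in both genes.

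**Figure D1:**
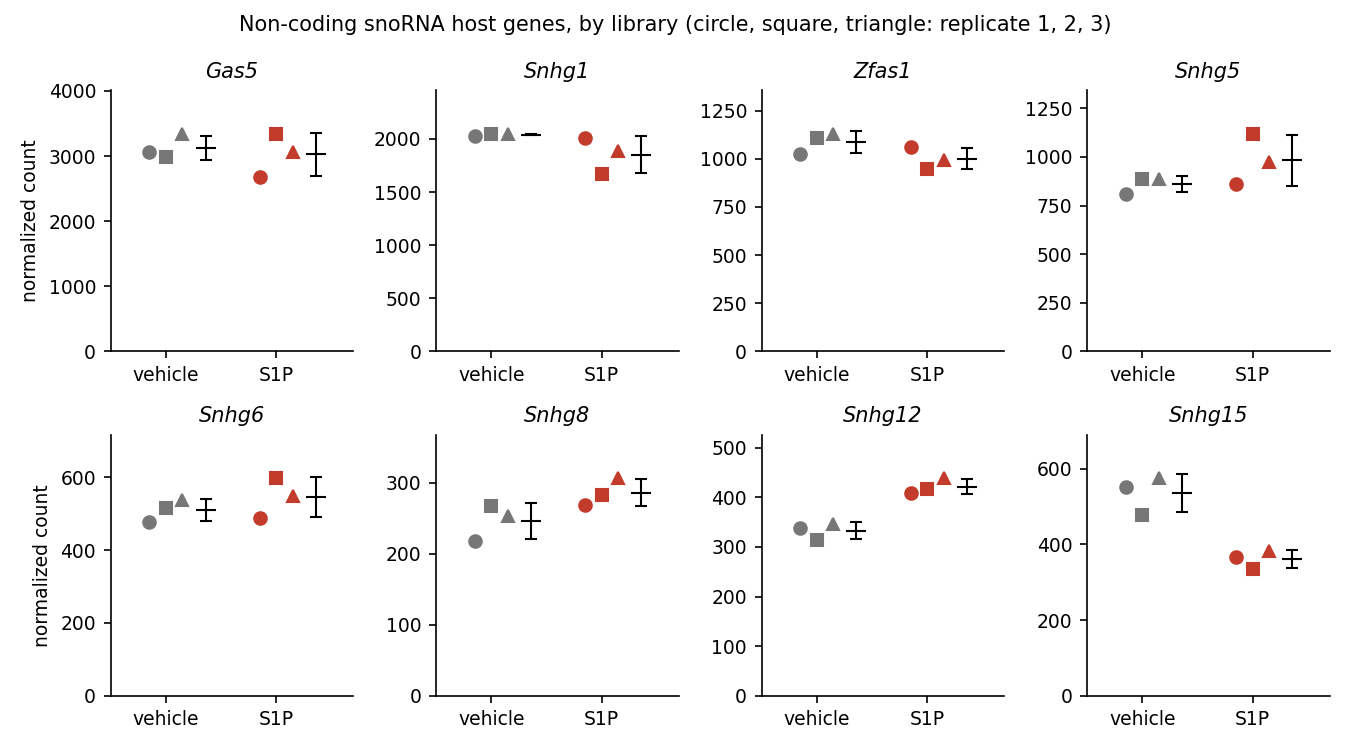
Normalized counts (y axis, from 0, its own scale per gene) of the 8 tested snoRNA hosts in the 3 vehicle (grey) and 3 S1P (red) libraries, with the mean and SD of each group in black. The groups are separate for Snhg12 (314 to 346 against 409.7 to 439) and Snhg15 (479 to 575 against 335 to 382), by a narrow margin for Snhg1 and Snhg8, and overlap for the other 4 genes.

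Gas5 had the highest level per length of the 8 hosts and did not pass the test. Its normalized counts were 3068, 2985 and 3338 with vehicle and 2682, 3339 and 3069 with S1P, and the lowest and the highest of all 6 were both S1P libraries. The means, 3130.3 ± 184 and 3029.9 ± 330 (SD, n = 3), gave a log2 fold change of -0.05 ± 0.09 (SE; adjusted p = 0.707, edgeR). The 95% interval, -0.24 to 0.14, excluded a change of 0.3 either way. Leaving out S1P replicate 1 turned the sign (0.03), and leaving out S1P replicate 2 gave -0.12, so no direction is given for Gas5.

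Snhg1 was very even in vehicle libraries, at 2032, 2043 and 2046 normalized counts. In S1P libraries it was at 2005, 1667 and 1883, each below the vehicle libraries, with S1P replicate 2 lowest. The log2 fold change was -0.14 ± 0.08 (SE; 95% interval -0.30 to 0.03; adjusted p = 0.192, edgeR) and did not pass. Without S1P replicate 2 it was -0.07. Zfas1, which is transcribed next to Znfx1 from the other strand, had 1022, 1109 and 1129 normalized counts with vehicle and 1059, 948 and 993 with S1P, an overlapping pattern (log2 fold change -0.12 ± 0.07, SE; 95% interval -0.28 to 0.04; adjusted p = 0.257, edgeR).

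Snhg5 and Snhg6, the hosts of Snord50a, Snord50b and Snord87, were alike in their highest and lowest libraries. For Snhg5 the normalized counts were 811, 887 and 884 with vehicle and 858, 1118 and 972 with S1P. Snhg6 had 478, 516 and 538 with vehicle and 488, 598 and 549.7 with S1P. They were highest in S1P replicate 2 and lowest in vehicle replicate 1, and in both the groups overlapped. Their log2 fold changes were 0.19 ± 0.10 (SE; 95% interval -0.02 to 0.40; adjusted p = 0.16) and 0.09 ± 0.09 (SE; 95% interval -0.11 to 0.29; adjusted p = 0.504), by edgeR. Without S1P replicate 2 these were 0.09 and 0.02, and without S1P replicate 1 they were 0.28 (adjusted p = 0.0302, under the fold threshold) and 0.17, again by edgeR. Of the exon sequence, 0.7% in Snhg5 and 14.8% in Snhg6 lay opposite another gene.

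Snhg8, the host of Snora24, had 218, 267 and 253 normalized counts with vehicle and 269.6, 283 and 307 with S1P. Every S1P library was above every vehicle library, but the gap between the nearest 2 libraries was small. Its log2 fold change of 0.22 ± 0.11 (SE; 95% interval -0.01 to 0.46; adjusted p = 0.144, edgeR) did not pass. It was 0.14 without vehicle replicate 1, and 0.299 (adjusted p = 0.0385, edgeR) with a GC offset and a replicate block together, just under the fold threshold. In 4 of the 8 tested hosts (Snhg1, Snhg8, Snhg12 and Snhg15) the groups did not overlap, against 45.6% of all tested genes, a share close to the background.

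Snhg3 could not be measured. It had 1, 0 and 1 counts with vehicle and 2, 0 and 0 counts with S1P, at or under the floor of 3 counts in every library (0.173 to 0.249 CPM), and no fold is given. On average 63.2% of the exon sequence of its 5 annotated transcripts is shared with Rcc1 or Snora73a on the same strand and 80.8% lies opposite Gm17300. How the authors' counting treated reads that fall in several genes is not given in the sources used here, so a low count does not show a low level of the RNA. Rcc1 itself, a chromatin-bound exchange factor for Ran, had 2135 ± 103 normalized counts with vehicle and 1259 ± 192 with S1P (SD, n = 3; log2 fold change -0.76, adjusted p = 0.000312, edgeR).

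Among the 6 hosts that did not pass, the 95% intervals of Gas5, Snhg6 and Zfas1 lay within a log2 fold change of 0.3 either way. Those of Snhg1, Snhg5 and Snhg8 reached past it on one side. These intervals are for single genes, without adjustment. In simulated data of the same means and library sizes, 54.1% of genes with a true log2 change of 0.5 and 82.7% of those with 1 were called, and changes as small as that of Snhg12 were not simulated.

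**Figure D2:**
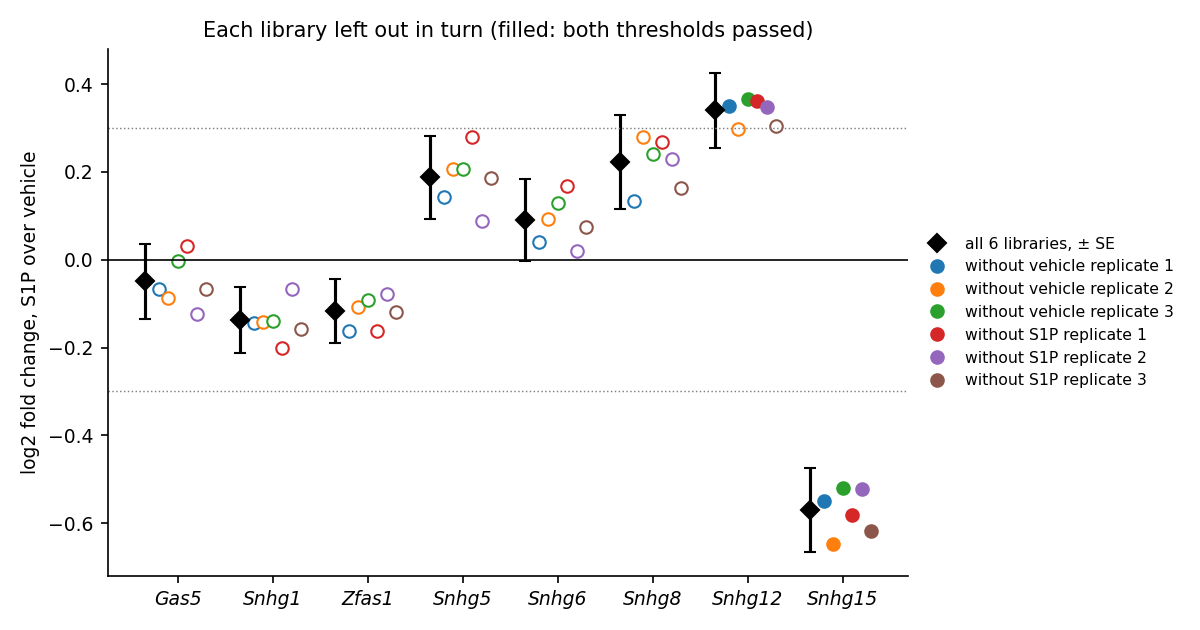
Log2 fold change (y axis, S1P over vehicle) of the 8 tested hosts with all 6 libraries (black, ± SE) and with each library left out in turn (coloured; filled where both thresholds were passed; dotted lines at 0.3 and -0.3). Snhg15 stays filled in all 6, Snhg12 opens without vehicle replicate 2 and without S1P replicate 3, and Gas5 crosses 0 without S1P replicate 1.

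Levels between hosts were compared per kilobase of the median transcript spliced free of snoRNAs. In vehicle libraries Gas5 was highest at 516 ± 30.4 CPM per kb (SD, n = 3), followed by Snhg1 at 222 ± 0.82 and Zfas1 at 167 ± 8.69. Snhg5, Snhg15 and Snhg6, at 64.3 ± 3.22, 64.2 ± 6.05 and 63.1 ± 3.79 CPM per kb, did not differ beyond their spread. Snhg8 lay at 46.9 ± 4.87 and Snhg12 at 40.1 ± 2.04 CPM per kb, and their ranges met. With S1P the first 3 kept their order, at 499.5 ± 54.4, 201 ± 18.6 and 153 ± 8.56 CPM per kb. Snhg15, at 43.3 ± 2.85 CPM per kb, was now the lowest of the 8, while Snhg12 at 50.9 ± 1.82 was above it and close to Snhg8 at 54.7 ± 3.58.

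The 5 protein-coding genes whose log2 CPM over the 6 libraries was most like the mean standardized profile of the 8 hosts were Timm10b, Rpl38, Fbxo25, Dtnbp1 and Nxf1, with Pearson correlations of 0.942 (Nxf1) to 0.963 (Timm10b). Rpl38 codes for a ribosomal protein and Nxf1 for the main mRNA export receptor. None of the 5 passed the thresholds, with log2 fold changes from -0.14 to 0.03. The 5 genes were picked from all tested protein-coding genes over the same 6 libraries, and are a description. The hosts themselves did not vary together. Their pairwise correlations ran from -0.944 (Snhg1 and Snhg5) to 0.948 (Snhg5 and Snhg6), so the mean profile need not describe any single host.

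Almost nothing can be read about the snoRNAs themselves from these libraries of polyadenylated RNA. The 33 snoRNA genes listed inside the 9 hosts had 0 counts in every library, which allows up to 3 counts per library for each. Of all 1558 snoRNA and scaRNA genes counted, 392 had any count, 6714 counts in all, and 29 had enough for a test. Whether the selection of polyadenylated RNA or the counting of reads that fall in several genes left the 33 at 0 was not tested. The values above therefore describe the host RNA, and the snoRNAs inside the 9 hosts were not measured.

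Other non-coding hosts were taken from the annotation. Of 82 such genes 18 had enough counts for a test, and of these 1 was higher and 8 were lower with S1P (50% called, against 23.1% of all tested genes), with a median log2 fold change of -0.35. Without vehicle replicate 3, 1 was higher and 4 were lower, in a fit that called 2119 of 13498 genes. All tested lncRNAs, 907 genes, had a median of 0.10 with 95 higher and 39 lower. Whether the other hosts differ from the 9 as a group was not tested.

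Dancr, the host of Snora26, had the largest fall. It had 71.4, 63.8 and 73 normalized counts with vehicle and 38.2, 37.5 and 33.6 with S1P, with no overlap (log2 fold change -0.93 ± 0.18, SE; adjusted p = 0.00337, edgeR). Snhg7, which carries Snora17 and Snora43, went from 296 ± 18.9 to 199 ± 30.1 (SD, n = 3; -0.56 ± 0.12, adjusted p = 0.00527, edgeR). Snhg4, the host of Snora74a, went from 505 ± 12.5 to 358 ± 32.8 (-0.49 ± 0.09, adjusted p = 0.0021, edgeR). These 3 kept their calls in all 18 alternative fits. On average 31.2% of the exon sequence of Snhg16 transcripts, 22.1% of that of Snhg7 and 20.7% of that of Dancr lay opposite another annotated gene. For Snhg4, 23.6% was shared with other annotated genes on the same strand, among them another entry named Snhg4. Its count therefore depends on how reads in several genes were treated.

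Snhg16, which carries Snord1a, Snord1b and Snord1c, had 189, 213 and 192 normalized counts with vehicle and 164, 82.8 and 118 with S1P (log2 fold change -0.67 ± 0.19, SE; adjusted p = 0.0222, edgeR). Its S1P libraries were the most uneven of the called hosts, with S1P replicate 2 lowest. The log2 fold change was -0.46 without that library and -0.97 without S1P replicate 1, and the call held in both fits. It was lost without any 1 of the 3 vehicle libraries or without S1P replicate 3, at log2 fold changes of -0.71 to -0.62 and adjusted p from 0.0538 to 0.0821. Snhg17 (842 ± 75.6 to 652 ± 57.1, SD, n = 3; -0.36, adjusted p = 0.0117, edgeR) and 2700038G22Rik, the host of Snord93 (214 ± 19.8 to 155 ± 9.65; -0.47, adjusted p = 0.0114, edgeR), lost their calls without vehicle replicate 3. In that fit Snhg17 was at -0.292 (adjusted p = 0.0681, edgeR) and 2700038G22Rik at -0.403 (adjusted p = 0.062, edgeR). The 1110038B12Rik gene, which hosts Snord52, was at 552 ± 4.48 and 432 ± 76.3 (-0.34, adjusted p = 0.0401, edgeR), and this call was lost in 8 of 18 alternatives. The log2 fold change of 1110038B12Rik was -0.22 without S1P replicate 2 and -0.47 without S1P replicate 1.

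AI506816 had the most counts of this group, 4912 ± 213 normalized counts with vehicle and 3541 ± 6.03 with S1P (SD, n = 3; log2 fold change -0.47 ± 0.06, SE; adjusted p = 0.000398, edgeR). Its value is uncertain, because 61.5% of its 31-base words recur elsewhere in the genome, as do 24% of those of 2700038G22Rik. Epb41l4aos was at 149.9 ± 9.84 and 150.2 ± 23.2 (log2 fold change -0.01, adjusted p = 0.975, edgeR), and its sign turned in 8 of 18 alternatives. On average 36.2% of the exon sequence of its transcripts lay opposite another annotated gene.

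The other non-coding host that rose, 2410006H16Rik, carries Snord49a, Snord49b and Snord65. Its normalized counts were 474, 564 and 598 with vehicle and 809, 745 and 846 with S1P, without overlap (log2 fold change 0.56 ± 0.10, SE; adjusted p = 0.00151, edgeR), and the call held in all 18 alternatives. The whole of its exon sequence lies opposite Lrrc75a, which had 48.8 ± 0.78 normalized counts with vehicle and 40.1 ± 6.68 with S1P. The strand setting of the counting is not given in the sources used here.

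**Figure D3:**
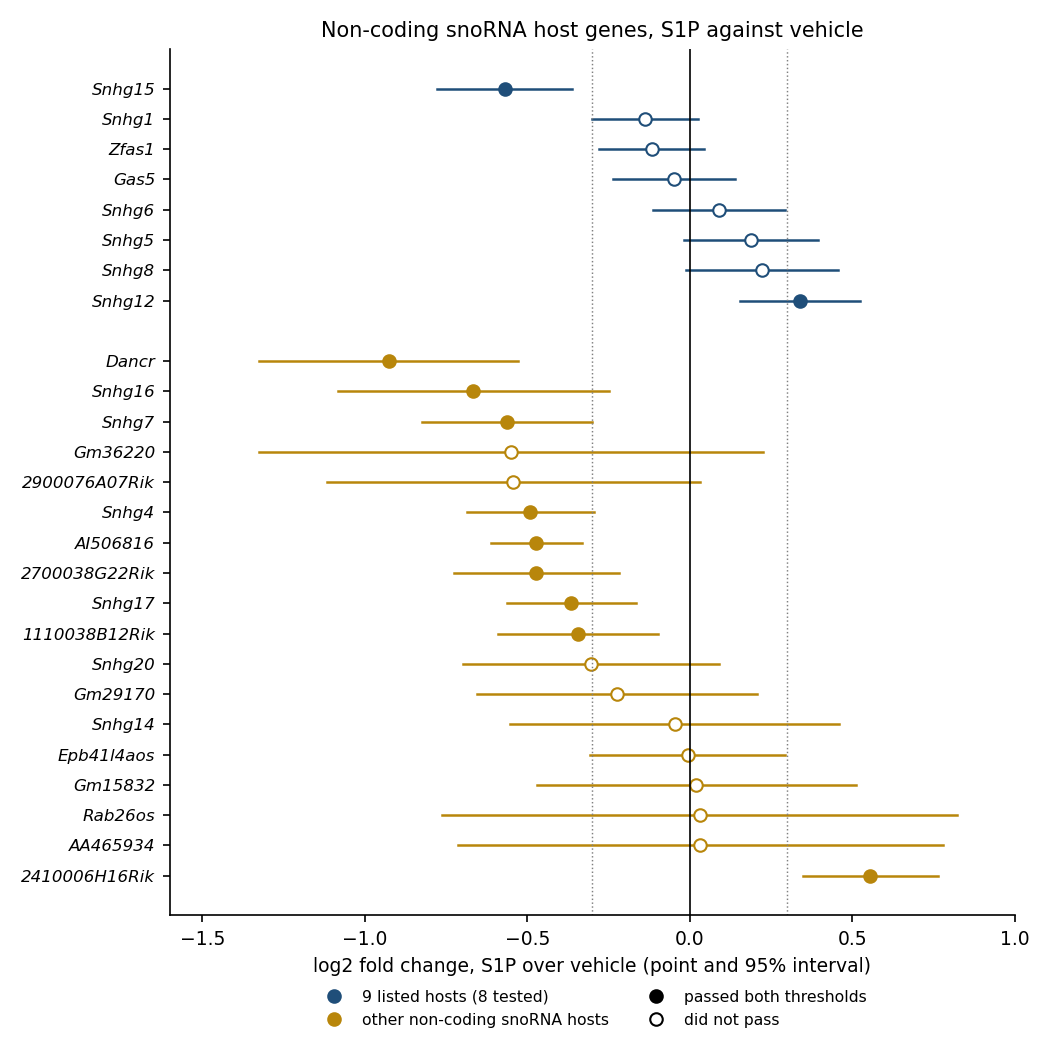
Log2 fold change (x axis, S1P over vehicle) with its 95% interval for the 8 tested of the 9 listed hosts (blue) and the 18 other tested non-coding hosts (gold); filled points passed both thresholds and dotted lines stand at 0.3 and -0.3. The listed hosts lie on both sides of 0 (-0.57 to 0.34), while 14 of the 18 others lie below it.

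Protein-coding hosts, whose spliced RNA is an mRNA, were called about as often as all tested genes (21.8% against 23.1%). Of 280 such genes 216 were tested, with 12 higher, 35 lower and a median log2 fold change of -0.05. The 30 ribosomal protein genes among them had 4 higher and 0 lower at the thresholds (13.3% called), with a median of 0.15, and the other 186 had 8 higher and 35 lower, with a median of -0.06. Largest among the rises were Rpl12 (1.04, S1P libraries uneven at 15840 ± 5010, SD, n = 3), Akap7 (0.86) and Sh3d19 (0.85). The largest falls were those of Rcc1 (-0.76), Tbrg4 (-0.73) and 2410002F23Rik (-0.65).

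Transcripts of snoRNP proteins, which bind snoRNAs, were read from a list of 19 genes that includes assembly factors. Of these 10 were lower and 0 higher (52.6% called, against 23.1% of all tested genes), 9 did not pass, and the median log2 fold change was -0.30, against 0.01 over all tested genes. The largest falls were in Snu13, a core protein of box C/D particles (2699.8 ± 7.59 to 1736 ± 155 normalized counts, SD, n = 3; log2 fold change -0.64, adjusted p = 0.000154, edgeR), in the assembly factor Znhit6 (-0.53, adjusted p = 0.0055, edgeR) and in Nop10 of the H/ACA particle (-0.50, adjusted p = 0.0104, edgeR). Fbl, the methyltransferase of box C/D particles, fell by 0.36 on the log2 scale, Dkc1, the pseudouridine synthase of H/ACA particles, by 0.40, and Nop56 by 0.32. Of the 9 that did not pass, Nop58 of the box C/D particle had a log2 fold change of -0.14 (adjusted p = 0.43, edgeR) and Gar1 of the H/ACA particle -0.09 (adjusted p = 0.691, edgeR). The assembly factor Nufip1 went the other way, at 0.26 (adjusted p = 0.0387, edgeR), and missed only the fold threshold. These 3 genes were named after their values were seen. Nop56 and Dkc1 also host snoRNAs in their own introns. Between 7 and 12 genes of this list were lower in each of the 18 alternative fits.

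Genes of the decay pathway that acts on host RNAs were called at about the share of all tested genes (23.1%). Among 18 NMD factors 1 was higher (Pnrc2, 0.42) and 3 were lower (22.2% called), with a median of -0.05. The lower ones were Smg5 (-0.49), the central helicase Upf1 (1671 ± 34.3 to 1298 ± 133 normalized counts, SD, n = 3; -0.36, adjusted p = 0.00607, edgeR) and Eif4a3 of the exon junction complex (-0.32). Smg1, the kinase of Upf1, had a log2 fold change of -0.03 (adjusted p = 0.836, edgeR). In the list of 17 genes of 5′-3′ and exosome decay, Dcp1b was higher (0.39), Exosc5 (-0.64), Exosc4 (-0.40) and Exosc2 (-0.34) were lower (23.5% called), and the median was -0.13.

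A list of protein-coding genes known to give rise to NMD targets was read from gene-level counts, which do not separate the isoforms that NMD degrades. Of 11 tested, 5 were higher and 3 lower (72.7% called, against 23.1% of all tested genes), with a median log2 fold change of 0.33. The paper already names Ddit3, Gadd45a and Gadd45b among the genes raised by S1P in its RNA sequencing. The list was chosen with earlier results known, so its share is a description with no test. The largest rises were Ddit3 (0.98), Gadd45a (0.69) and Gadd45b (0.59), all also stress-induced genes, and the falls were in the splicing factors Srsf2 (-0.67), Srsf7 (-0.45) and Srsf3 (-0.43), of which the isoforms with a poison exon are the known targets. Atf4 had a log2 fold change of 0.24 (adjusted p = 0.022, edgeR), under the fold threshold.

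The 5′TOP mRNAs of the translation machinery, 16 genes, had 1 higher and 0 lower at the thresholds (6.25% called, against 23.1% of all tested genes) and a median of 0.15. That gene was Pabpc1 (0.50), the poly(A)-binding protein, and Eef1a1, the main elongation factor, was at 0.18 (adjusted p = 0.168, edgeR). Among 11 genes that control TOP mRNAs and cap binding, Ddit4 (1.51) and Eif4ebp1 (0.85) were higher. Eif4e (-0.44), Eif4g1 (-0.42) and Eif4ebp2 (-0.31) were lower. The share called was 45.5%, against 23.1% of all tested genes, with a median of -0.16. Of 12 lncRNAs that carry no snoRNA 10 were tested, and 4 were higher and 0 lower (40% called, against 14.8% of all tested lncRNAs; median 0.03), led by Mir155hg (0.75), Neat1 (0.65) and Oip5os1 (0.36).

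**Figure D4:**
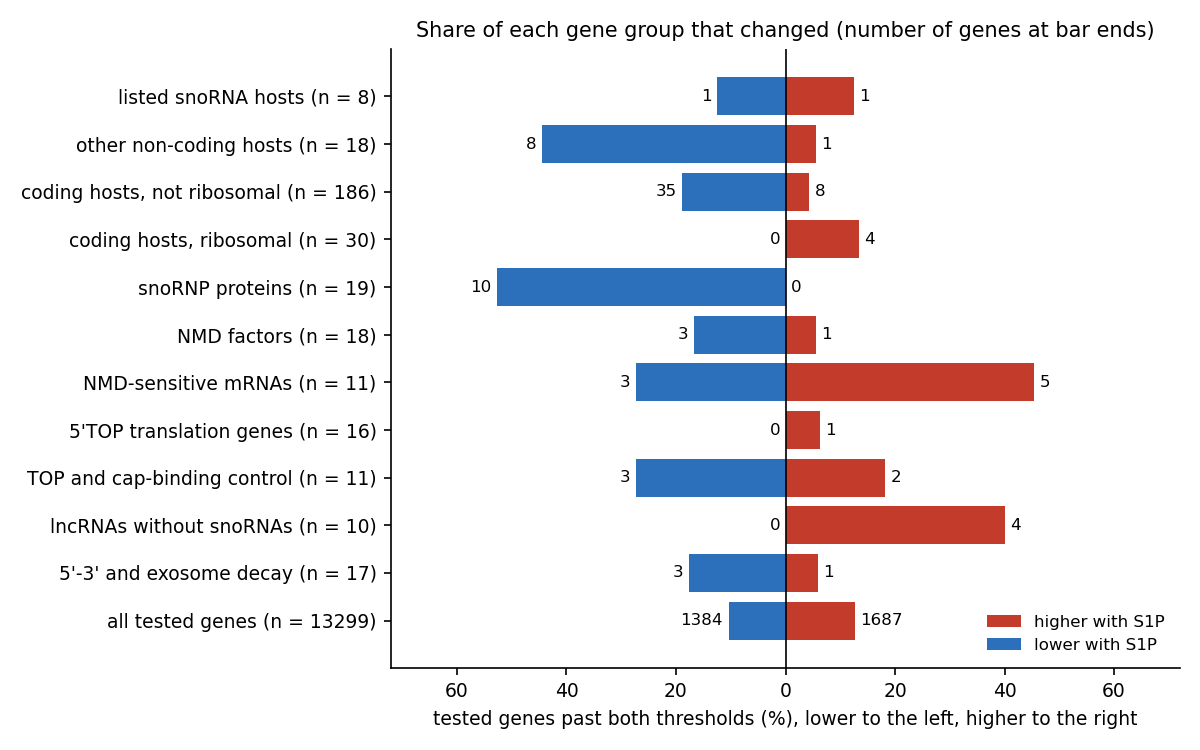
Share of tested genes (x axis, %) that passed both thresholds in each gene group, lower with S1P to the left (blue) and higher to the right (red), with the number of genes at the bar ends. The 8 tested hosts (1 lower, 1 higher) lie near all tested genes (1384 lower, 1687 higher), whereas the other non-coding hosts (8 lower, 1 higher) and the snoRNP proteins (10 lower, 0 higher) extend to the left.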

How the data were processed

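The authors trimmed paired reads from strand-specific libraries of polyadenylated RNA with Trim Galore, aligned them with STAR to GRCm39 (per the submitters' processing notes) and made gene-level tallies with featureCounts. What they deposited is a table of raw counts for 56941 Ensembl identifiers, of which 56323 are in GENCODE vM39. Versions, strand setting and treatment of ambiguous reads are not given in the sources used here.

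Treatment was the only term of 1 fit over all 6 libraries, made in edgeR 4.0.16 with limma 3.58.1 under R 4.3.3, with TMM factors, filterByExpr and Benjamini-Hochberg adjustment over 13299 tested genes. Alternatives were DESeq2 1.42.0, limma-voom, other scalings and filters, GC and length offsets, a replicate block, no mitochondrial genes, other thresholds and each library left out. The model was tested on simulated data (13085 genes).

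The hosts and gene lists were chosen with earlier results of these data known. Other non-coding hosts are lncRNA genes with a snoRNA inside them on their strand, or named as hosts. Named were all 9 hosts, other hosts with a mean of at least 100 counts or a call, up to 3 called genes per direction and list, 7 fixed genes and the 5 most similar genes. Start runs, reading frames, levels per length and the Snhg12 to Snhg15 ratio were added after the fold changes were seen. Errors cover counting and spread between libraries only, and depth left Snhg3 at the floor.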

Additional observations from a re-analysis of the deposited data

How the results depend on the processing

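All numbers here were recomputed with 1 choice changed at a time, except where the GC offset and the replicate block were combined. Snhg15 and, among the other hosts, Dancr, Snhg7, Snhg4, AI506816 and 2410006H16Rik kept direction and call in all 18 fits, and Snhg1, Snhg5, Snhg6, Snhg8 and Zfas1 kept their direction and stayed uncalled. A fold threshold of 1 on the log2 scale left 465 of 3071 genes called, 0 of the 9 hosts and 0 of the other hosts, while dropping the fold threshold gave 3788 genes and 2 hosts. Without a filter on low counts 1 host was called, with Snhg12 at 0.31 (adjusted p = 0.0565, edgeR). Leaving out each library in turn gave 2119 to 3228 called genes, 1 to 2 of the 9 hosts and 5 (without vehicle replicate 3) to 10 of the other hosts. In the same fits Snhg12 ranged from 0.297 to 0.367 and Gas5 from -0.12 to 0.032, the highest Gas5 value being without S1P replicate 1. Epb41l4aos turned to 0.016 with upper-quartile factors, to 0.015 with the GC offset (0.015 also with the replicate block added) and to 0.002 with the length offset, and ranged from -0.13 to 0.089 over libraries left out, with 0.017 without vehicle replicate 2, 0.020 without vehicle replicate 3, 0.089 without S1P replicate 1 and 0.011 without S1P replicate 3. The cause of these shifts was not tested. At this depth Snhg3 lay at or under the floor of 3 counts in every library.

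Same-numbered libraries had correlations of deviations of 0.12 (replicate 1), -0.00598 (replicate 2) and 0.0483 (replicate 3). S1P replicates 1 and 3 were each closest to the vehicle library of their own number. S1P replicate 2 was closest to vehicle replicate 3 (0.0496). Whether the replicate numbers pair the libraries was not tested. With the replicate block 3120 genes, 2 of the 9 hosts and 9 other hosts were called, with Snhg12 at 0.34 (adjusted p = 0.0158, edgeR) and Snhg15 at -0.57 (adjusted p = 0.000844, edgeR), and no call among the hosts changed.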
